A study of Mus musculus with 12 samples.

Results

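Clathrin coats, adaptor complexes, sorting nexins, vacuolar protein sorting (Vps) proteins and ESCRT (endosomal sorting complexes required for transport) carry cargo into, through and out of endosomes. The genes described here were chosen by symbol: the clathrin chains, the subunits of adaptor complexes AP-1 to AP-4, the dynamins, and all genes whose symbols begin with Snx, Vps or Chmp followed by a number. This gave 103 of the 54532 genes in the count table. Of these, 96 had enough counts to be tested, among 15014 genes tested in all.

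Tumour-associated macrophages (TAMs) that had taken up nanoparticles were compared with those that had not. All 6 glioma-bearing mice carried the genotype label Ntv-a_Ink4a/Arf_KO and had received rhodamine-labelled perfluoro-crown-ether nanoparticles into the blood 24 hours before the tumour was taken. The rhodamine-positive group holds the CD45+, CD11b+, Ly6C- cells of each tumour that carried the rhodamine signal, and the rhodamine-negative group holds cells of the same gate and the same tumour without it. Each mouse gave 1 library of more than 2000 cells to each group (n = 6 libraries each, 4 from male and 2 from female mice), and all libraries share 1 batch label. Polyadenylated RNA was sequenced, and the question was how the expression profile of the cells that took up particles differs from that of the cells that did not. Both groups came from treated, tumour-bearing animals, and rhodamine-negative cells had met the same injection.

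Clathrin forms the outer cage of vesicles that bud from the plasma membrane, endosomes and the trans-Golgi network, and the AP complexes link it to cargo. On endosomes, retromer and sorting nexins return receptors to the cell surface or the Golgi, while ESCRT pulls ubiquitinated receptors into internal vesicles bound for the lysosome. The HOPS and CORVET tethers bring endosomes and lysosomes together before they fuse, and macrophages use this machinery to process material that they engulf.

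Libraries held 13073189 to 17379314 counts in the rhodamine-positive group and 13421387 to 16167832 in the rhodamine-negative group. The labelled cell type was checked against marker genes. The 7 macrophage and gate markers, which include Csf1r, Cd68 and Ptprc (CD45), were all tested, and 4 rose and 1 fell. They summed to 9481 to 10990 CPM (read counts scaled to a common library size) in rhodamine-positive and 5146 to 9299 CPM in rhodamine-negative libraries. The gate marker Ptprc was the one that fell (log2 -0.56, adjusted p = 0.000754), while Cd68 and Adgre1 rose by 0.87 and 0.81. Markers of other cells differed between the groups. The 11 dendritic cell markers summed to 408.9 to 677.1 CPM in rhodamine-positive and 895.3 to 1863 CPM in rhodamine-negative libraries, and 10 of the 11 fell. The exception, Siglech (log2 -0.14), had the most counts of the 11 in every rhodamine-positive library, at 3019 to 6614. The 6 monocyte markers summed to 45.5 to 112 CPM in rhodamine-positive and 235.1 to 593.2 CPM in rhodamine-negative libraries, and 3 of them fell. The 8 natural killer and T cell markers summed to 2.62 to 11.2 CPM in rhodamine-positive and 41.0 to 88.2 CPM in rhodamine-negative libraries, with Ncr1 at 0 in every rhodamine-positive library. Most of this sum was Klrd1, the only 1 of the 8 with enough counts to test. It had 25 to 128 counts in rhodamine-positive and 586 to 1268 in rhodamine-negative libraries. The T cell genes Cd3d, Cd3e and Cd3g had at most 8 counts in any library of either group. The 6 basophil and mast cell markers summed to 0.0624 to 23.7 CPM in rhodamine-positive and 7.71 to 442.9 CPM in rhodamine-negative libraries. For the 6 B and plasma cell markers the sums were 90.9 to 229 CPM in rhodamine-positive and 152.6 to 275 CPM in rhodamine-negative libraries, and 3 of 5 tested fell. Most of these sums was Ighm, which fell by 0.38 on the log2 scale. Jchain had 0 to 7 counts in rhodamine-positive and 80 to 675 in rhodamine-negative libraries (log2 -7.41, adjusted p = 6.17e-06). Mzb1 had 0 to 2 and 11 to 140 counts (log2 -5.58, adjusted p = 0.000167). The 10 glioma and oligodendrocyte lineage markers summed to 48.4 to 135.4 CPM in rhodamine-positive and 97.8 to 148.4 CPM in rhodamine-negative libraries. Neutrophil markers, 6 in all, summed to 247 to 414 CPM in rhodamine-positive and 220 to 390 CPM in rhodamine-negative libraries. Nearly all of this sum was Csf3r, which did not pass (log2 0.15), at 3467 to 6619 counts in rhodamine-positive and 2965 to 6406 in rhodamine-negative libraries. The other marker tested, Cxcr2, fell (log2 -2.42, adjusted p = 0.000492). Ly6g was at 0 in every rhodamine-positive library and had at most 1 count in any rhodamine-negative one. The part of these cells in the differences below was not tested, and in sorted bulk samples fewer cells of a type and less RNA per cell cannot be told apart.

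More of the measured vesicle sorting genes were higher than lower in cells carrying nanoparticles, by small amounts. Of 96 members, 30 rose, 4 fell and 62 did not pass the test, against 13.0% of all 15014 genes higher and 13.2% lower (26.2% in either direction). The members' shares were 31.2% higher and 4.17% lower. The test was edgeR's quasi-likelihood test with the mouse as a block and Benjamini-Hochberg adjustment over all genes tested, with a threshold of 0.05. It applied to every log2 fold change and adjusted p given here, and log2 fold changes are rhodamine-positive over rhodamine-negative. The members' median log2 fold change was 0.15, against -0.02 over all genes, and their range was -1.55 to 0.67. Only 1 member, Snx20, passed with a change of 2-fold or more, against 6.09% of all genes.

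Most members are well expressed, and abundant genes were more often higher in these data. Among genes with a mean of at least 10 CPM, 30 of 87 members rose (34.5%) and 4 fell (4.6%), against 20.0% higher and 13.9% lower among all 8845 such genes, and the medians were 0.17 for the members and 0.06 for all. The summed level of the 103 members was 8651 to 9434 CPM (8961 ± 263, mean ± SD, n = 6) in rhodamine-positive libraries and 7201 to 7686 CPM (7434 ± 172) in rhodamine-negative libraries. The groups did not overlap, and the sum was higher in the rhodamine-positive library of 6 of 6 mice. CPM here carry edgeR's scaling between libraries, the trimmed mean of M-values (TMM). Without that scaling, the members took 0.798 to 0.923% of library counts in rhodamine-positive and 0.7535 to 0.8446% in rhodamine-negative libraries, higher in 6 of 6 mice, and the ranges overlapped. The scaling bears on every direction below. With library size alone the median of all genes moved to -0.18 on the log2 scale and the members' median was -0.0074. In that setting 17 of 96 members were called higher (17.7%) and 13 lower, against 5.67% of all genes higher and 20.9% lower.

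**Figure D1:**
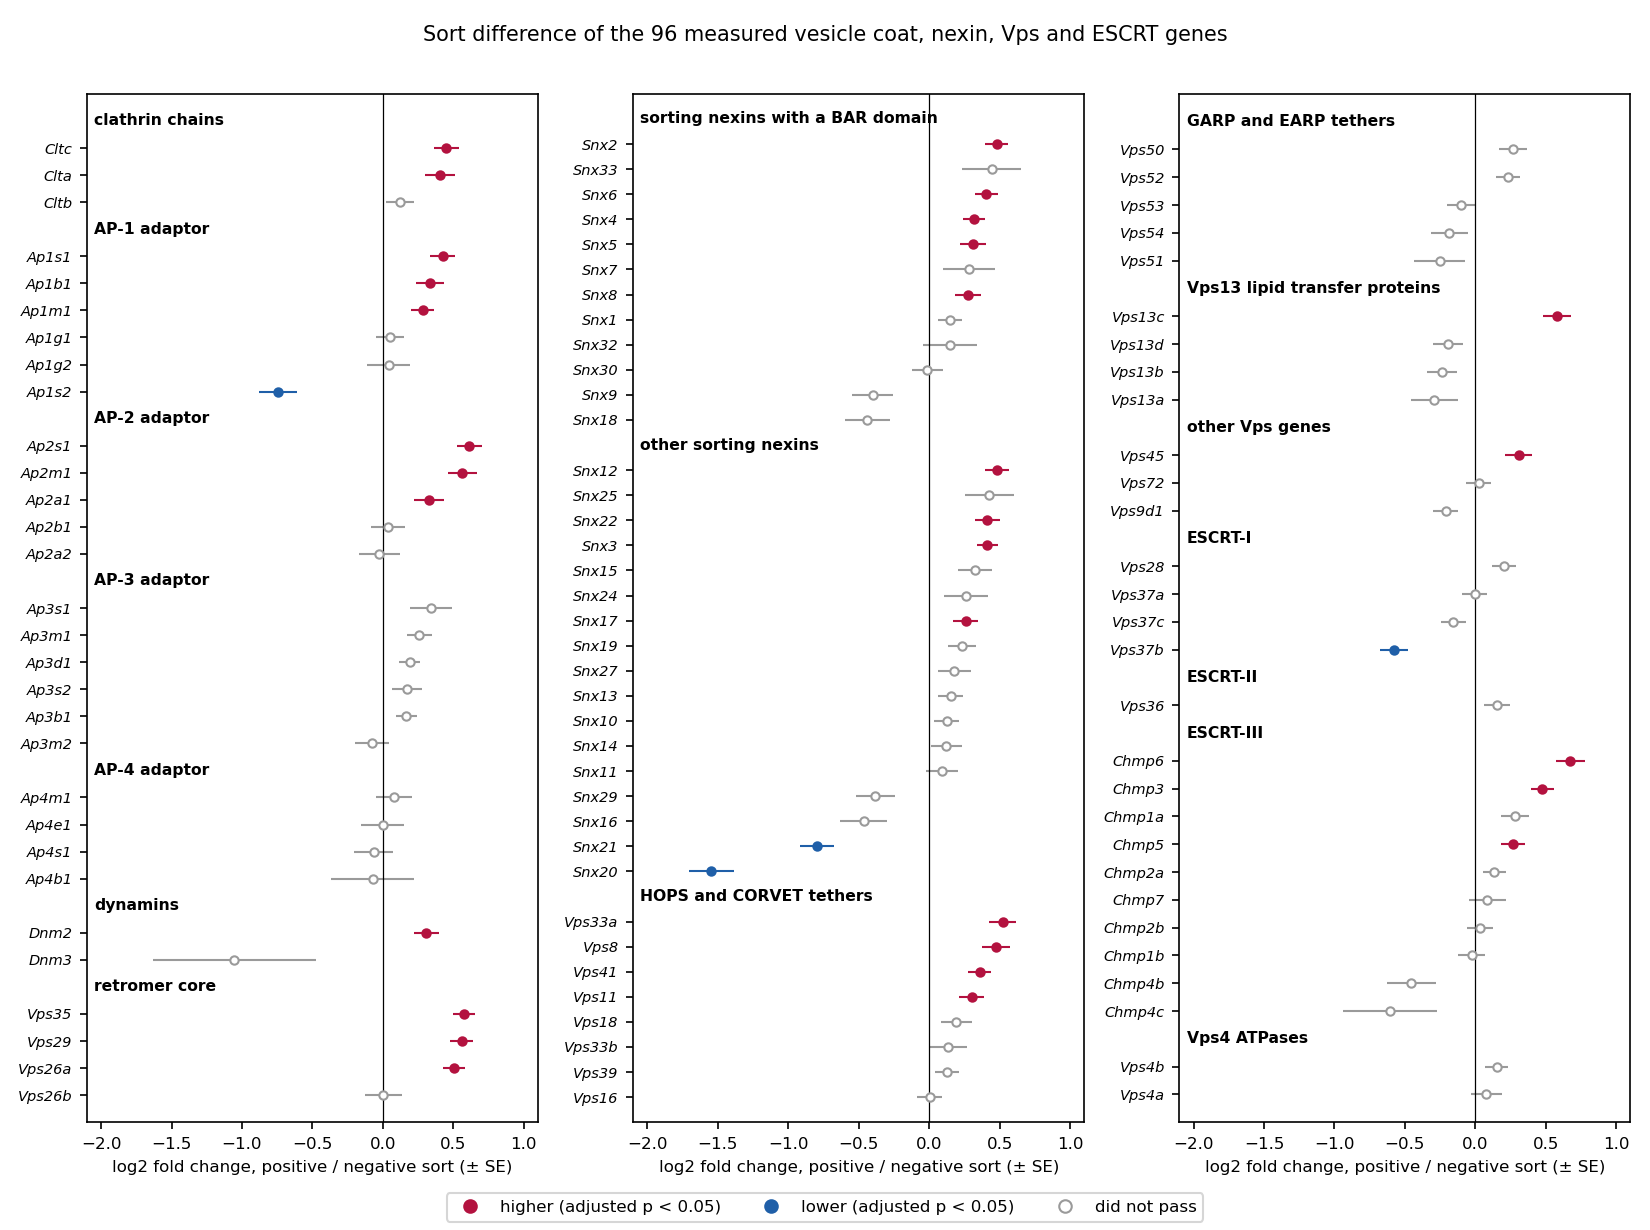
Log2 fold change of each of the 96 tested members, rhodamine-positive over rhodamine-negative, with its standard error (SE), grouped by complex. The 30 filled red points passed as higher, the 4 filled blue points as lower, and the 62 open points did not pass, and retromer core genes stand together near 0.5 apart from Vps26b.

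**Figure D2:**
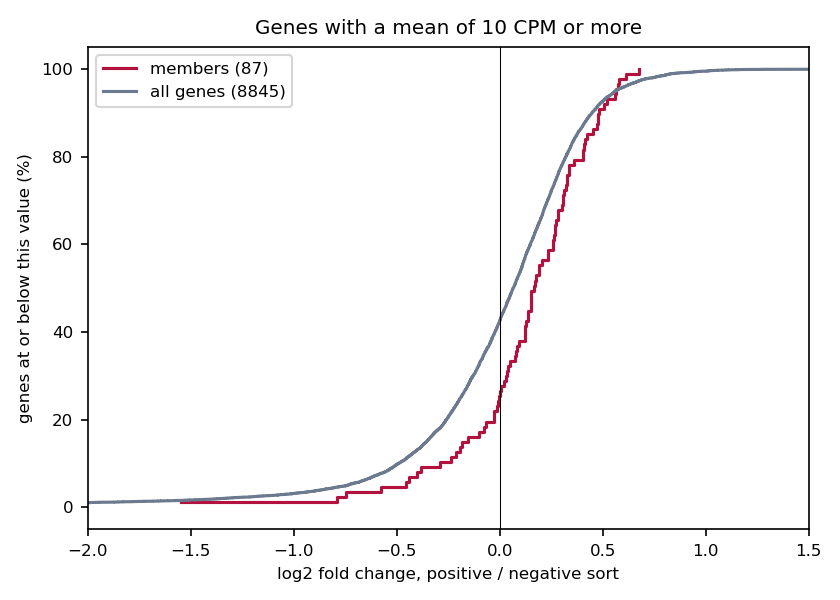
Cumulative share of genes (percent) by log2 fold change, rhodamine-positive over rhodamine-negative, for the 87 members and all 8845 genes with a mean of 10 CPM or more. The members' line lies to the right of the line of all genes over the middle of the range, with medians of 0.17 and 0.06.

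Clathrin and the plasma membrane adaptor AP-2 were among the groups with more than 1 subunit higher. Of 3 clathrin chains 2 rose, and of 5 AP-2 subunits 3 rose and none fell. Cltc (ENSMUSG00000047126; chromosome 11, positions 86694351 to 86757565, mm10 throughout), the heavy chain that forms the legs of the clathrin cage, had 408, 495 and 562 CPM in rhodamine-positive libraries as lowest, median and highest value, and 296, 341 and 483 CPM in rhodamine-negative libraries. The ranges overlapped, each mouse was higher in its rhodamine-positive library, and the log2 fold change was 0.45 (SE 0.09, adjusted p = 0.00349). Clta, the light chain A, had 474, 511 and 529 CPM in rhodamine-positive and 260, 403 and 452 CPM in rhodamine-negative libraries. Its groups did not overlap, and it rose by 0.40 (SE 0.11, adjusted p = 0.0169). Clta did not pass without mouse 3 (adjusted p = 0.0557) or when scaled to library size alone (adjusted p = 0.0828). Cltb, the light chain B, had 38.4, 60.7 and 68.3 CPM in rhodamine-positive and 45.9, 53.2 and 56.7 CPM in rhodamine-negative libraries, and its log2 fold change of 0.12 (SE 0.10) did not pass. Per length of exon, Clta was the most abundant member, at 281 ± 11.4 RPKM (read counts scaled to library size and exon length) in rhodamine-positive and 215.6 ± 40.4 RPKM in rhodamine-negative libraries (SD, n = 6).

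Within AP-2, the small and medium subunits had the largest log2 fold changes. Ap2s1 (ENSMUSG00000008036; chromosome 7, positions 16738410 to 16749294), the small sigma subunit that reads dileucine signals together with an alpha subunit, had 101, 132 and 150 CPM in rhodamine-positive and 63.8, 86.3 and 116 CPM in rhodamine-negative libraries. The ranges overlapped, all 6 mice were higher in the rhodamine-positive library, and it rose 1.53-fold (log2 0.61, SE 0.09, adjusted p = 0.000597). Ap2m1 (ENSMUSG00000022841; chromosome 16, positions 20535478 to 20544909), the mu subunit that binds tyrosine-based signals, had 400, 490 and 694 CPM in rhodamine-positive and 316, 326 and 398 CPM in rhodamine-negative libraries. The groups did not overlap, by a narrow margin (lowest rhodamine-positive value 399.6 CPM, highest rhodamine-negative value 398.1 CPM), and it rose by 0.56 (SE 0.10, adjusted p = 0.00226). Reads of Ap2m1 may be split with Gm13509, a near-identical copy. Ap2a1, an alpha subunit, had 35.1, 37.4 and 40.05 CPM in rhodamine-positive and 24.8, 28.9 and 36.3 CPM in rhodamine-negative libraries, and rose by 0.33 (SE 0.10, adjusted p = 0.0365). It did not pass without mouse 1, 2, 3, 4 or 6 (largest adjusted p = 0.107) or in a fit that left out the mouse as a block, called the unpaired fit here (adjusted p = 0.0641). Of its exon bases 16.7% overlap the opposite-strand gene Fuz, whose log2 fold change was 0.02. The strand setting of the counting is not given in the sources used here, so reads of such overlapping genes cannot be told apart. The other large subunits did not pass. Ap2a2, the second alpha subunit gene, had 60.2, 80.3 and 96.7 CPM in rhodamine-positive and 56.7, 81.1 and 117 CPM in rhodamine-negative libraries (log2 -0.03, SE 0.15). Ap2b1, the beta subunit that binds clathrin, had 58.6, 70.1 and 79.0 CPM in rhodamine-positive and 53.3, 63.9 and 93.7 CPM in rhodamine-negative libraries (log2 0.03, SE 0.12).

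AP-1, which sorts between the trans-Golgi network and endosomes, changed in both directions. Of 6 tested subunits 3 rose and 1 fell. Ap1s1, a small sigma subunit, had 83.2, 97.1 and 120.2 CPM in rhodamine-positive and 63.2, 71.7 and 89.1 CPM in rhodamine-negative libraries and rose by 0.42 (SE 0.09, adjusted p = 0.00529). Ap1s2 (ENSMUSG00000031367; chromosome X, positions 163909017 to 163933666), which encodes an alternative sigma subunit, had 41.0, 73.0 and 89.5 CPM in rhodamine-positive and 78.5, 114 and 168 CPM in rhodamine-negative libraries. The ranges overlapped, Ap1s2 was lower in the rhodamine-positive library of 6 of 6 mice, and it fell 1.68-fold (log2 -0.75, SE 0.14, adjusted p = 0.00219). Ap1m1, the medium subunit, rose by 0.28 (adjusted p = 0.0218) and its groups did not overlap, at 103 to 119 CPM in rhodamine-positive and 84.8 to 98.5 CPM in rhodamine-negative libraries. It did not pass without mouse 1, 3 or 4 (largest adjusted p = 0.0647). Ap1b1, the beta subunit, rose by 0.33 (adjusted p = 0.0251) in 5 of 6 mice, with its highest value, 265 CPM, in the rhodamine-positive library of mouse 5. It did not pass without mouse 1, 3 or 4 (largest adjusted p = 0.0708) or in the unpaired fit (adjusted p = 0.127). The gamma subunits Ap1g1 and Ap1g2 had log2 fold changes of 0.05 and 0.04 and did not pass.

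No subunit of AP-3, which sorts cargo to lysosomes and related organelles, passed among 6 tested, with log2 fold changes of -0.08 (Ap3m2) to 0.34 (Ap3s1). Ap3s1 was higher in 4 of 6 mice and was called higher without a filter. Its reads may be split with the near-identical copies Ap3s1-ps1 and Ap3s1-ps2. The medium subunit Ap3m1, the delta subunit Ap3d1 and the beta subunit Ap3b1 were higher in 6 of 6 mice. Their log2 fold changes were 0.26 (adjusted p = 0.051), 0.19 (adjusted p = 0.0792) and 0.17 (adjusted p = 0.134). In alternative fits Ap3m1 was called higher by limma-voom, with a GC and length offset, with male mice alone and without mouse 5. Of its exon bases 29.8% overlap the opposite-strand gene Vcl. None of the 4 AP-4 subunits passed, and their log2 fold changes lay between -0.07 and 0.08. The lowest was that of Ap4b1, with a mean of 2.21 CPM in rhodamine-positive and 2.31 CPM in rhodamine-negative libraries, and 82.4% of its exon bases are shared with Gm43064 on the same strand, where counting can leave reads unassigned. Dnm2, the dynamin GTPase present in most cell types, which cuts vesicles from the membrane, had 374, 413 and 454 CPM in rhodamine-positive and 284, 334 and 398 CPM in rhodamine-negative libraries and rose by 0.31 (SE 0.09, adjusted p = 0.0248). It did not pass without mouse 3 or 4 (largest adjusted p = 0.0658) or in the unpaired fit (adjusted p = 0.0508). The dynamins known from neurons were scarce, with at most 1.77 CPM of Dnm3 and 0.556 CPM of Dnm1 in any rhodamine-positive library and at most 1.93 CPM and 0.784 CPM in any rhodamine-negative library.

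**Figure D3:**
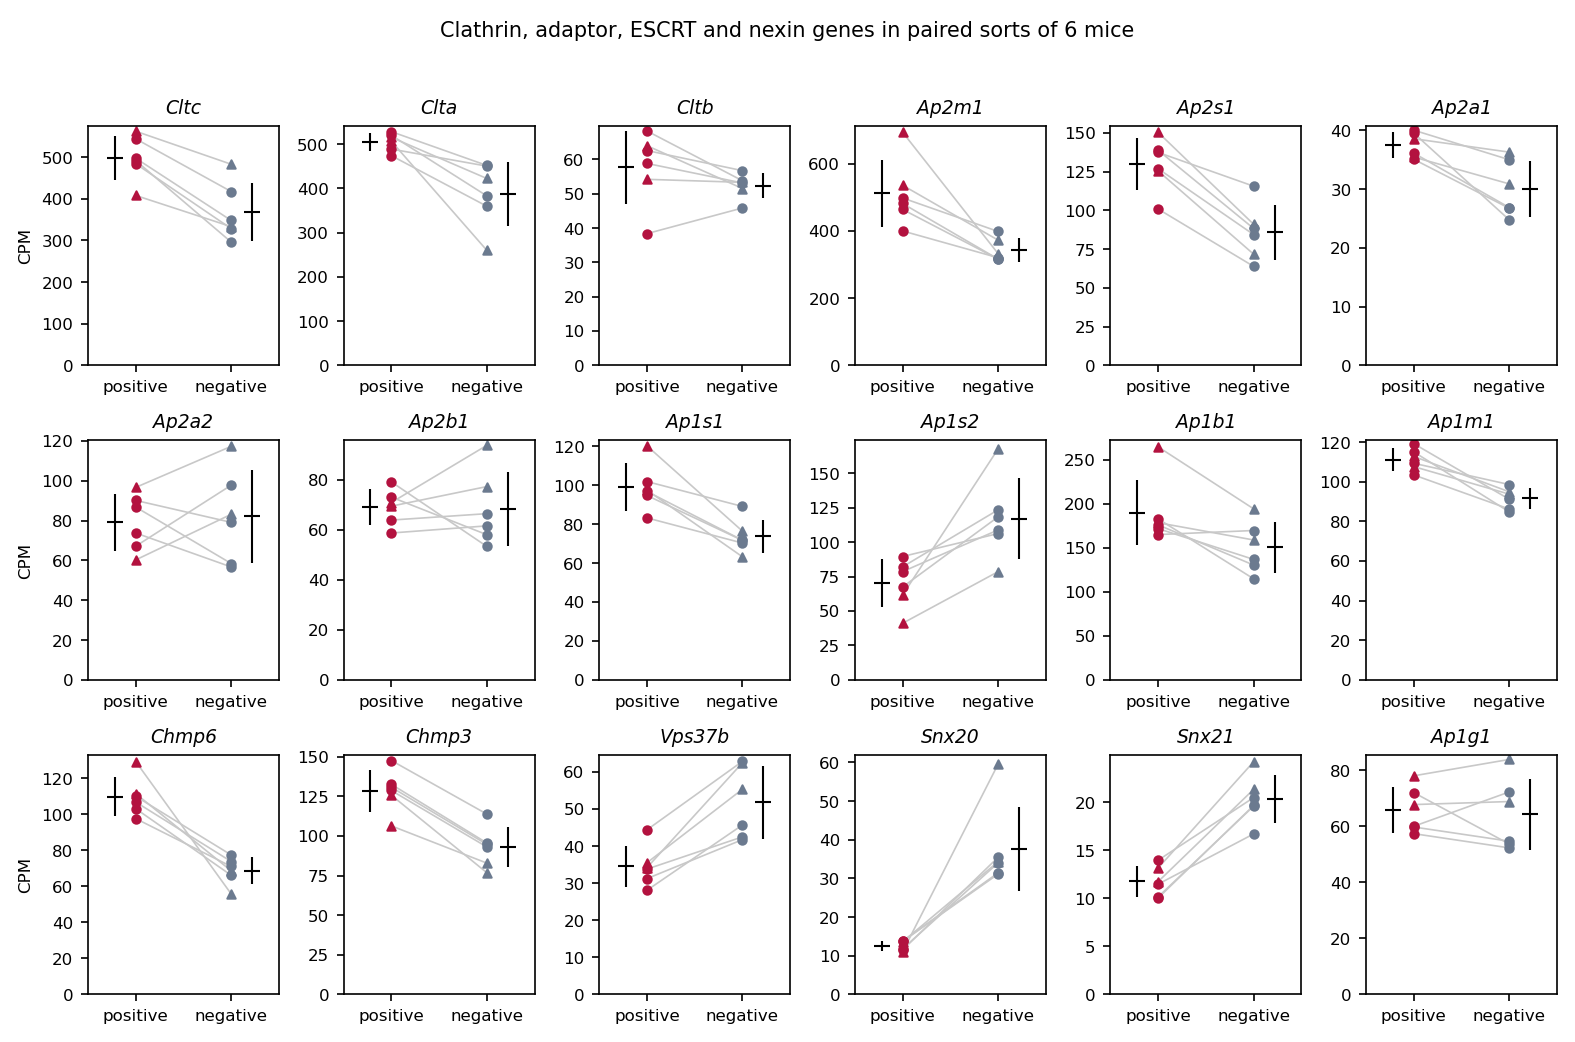
TMM-scaled CPM of 18 clathrin, adaptor, ESCRT and nexin genes in the rhodamine-positive (left) and rhodamine-negative (right) library of each of 6 mice, joined by lines, with circles for male and triangles for female mice and bars for the mean ± SD (n = 6). Ap2s1 and Ap1s1 were higher and Ap1s2, Vps37b, Snx20 and Snx21 lower in the rhodamine-positive library of each mouse, while Ap2a2, Ap2b1 and Ap1g1 had no shared direction.

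Retromer had the highest share of members higher among the groups of 4 or more. Retromer is a trimer of VPS35, VPS29 and VPS26 that binds cargo on endosomes, and 3 of its 4 genes rose. Vps35 (ENSMUSG00000031696; chromosome 8, positions 85260392 to 85299802), the scaffold of the trimer, had 239, 275 and 288 CPM in rhodamine-positive and 164, 181 and 206 CPM in rhodamine-negative libraries. The groups did not overlap, and Vps35 rose 1.49-fold (log2 0.57, SE 0.08, adjusted p = 0.0004). Vps29, which sits at the other end of the scaffold from VPS26, had 184, 202 and 249 CPM in rhodamine-positive and 109, 137 and 178 CPM in rhodamine-negative libraries and rose by 0.56 (SE 0.08, adjusted p = 0.000717). Its groups did not overlap either. Vps26a, the arrestin-like subunit that docks sorting nexins, had 127, 149 and 161 CPM in rhodamine-positive and 91.6, 104 and 114 CPM in rhodamine-negative libraries, and rose by 0.51 (SE 0.08, adjusted p = 0.000785) with no overlap. All 3 passed in each of 17 alternative settings, which included each mouse left out, other scalings and other tools. The alternative subunit gene Vps26b had 25.6, 35.0 and 36.1 CPM in rhodamine-positive and 24.6, 34.5 and 44.6 CPM in rhodamine-negative libraries, and its log2 fold change of 0.00 (SE 0.13) did not pass. Per exon length, Vps26a had 51.5 ± 4.05 RPKM and Vps26b 6.60 ± 0.779 RPKM in rhodamine-positive libraries (SD, n = 6).

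Among the nexins that work with retromer, Snx3, which recruits it to early endosomes for the return of Wntless, had 309, 338 and 396 CPM in rhodamine-positive and 222, 250 and 320 CPM in rhodamine-negative libraries and rose by 0.41 (SE 0.07, adjusted p = 0.00216). Its close relative Snx12 had 55.5, 62.3 and 71.9 CPM in rhodamine-positive and 41.3, 44.8 and 47.8 CPM in rhodamine-negative libraries. The groups did not overlap, and Snx12 rose by 0.48 (SE 0.09, adjusted p = 0.0020). Of the 12 nexins with a BAR domain, the part that bends membranes into tubules, 5 rose and none fell. Snx2 rose by 0.48 (SE 0.08, adjusted p = 0.00136), with 177, 246 and 274 CPM in rhodamine-positive and 135, 168 and 190 CPM in rhodamine-negative libraries, and the ranges overlapped. Snx6 and Snx5, which pair with SNX1 or SNX2 in the dimers that form tubules, rose by 0.40 (adjusted p = 0.00438) and 0.31 (adjusted p = 0.0288). Snx5 did not pass without mouse 1, 2, 3, 5 or 6 (largest adjusted p = 0.0965) or in the unpaired fit (adjusted p = 0.0842). The remaining partner gene, Snx1, had 157, 181 and 203 CPM in rhodamine-positive and 148, 159 and 187 CPM in rhodamine-negative libraries, and its log2 fold change of 0.15 (SE 0.09) did not pass. Snx4, known for the recycling of the transferrin receptor, rose by 0.32 (adjusted p = 0.0111), and its reads may be split with the near-identical AC154707.2. Snx8 rose by 0.27 (adjusted p = 0.0429), but it did not pass without mouse 1, 3, 4, 5 or 6 (largest adjusted p = 0.103) or in the unpaired fit (adjusted p = 0.108). Snx9 and Snx18, which act with dynamin at the plasma membrane, had log2 fold changes of -0.40 (adjusted p = 0.0599) and -0.44 (adjusted p = 0.0597) and did not pass. Both were called lower by DESeq2, in limma on the deposited log2 table and with library size alone. The same call came without a filter, with a stricter filter and without mouse 1. Snx9 was also called lower by limma-voom and with a GC and length offset, and Snx18 without mouse 2.

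**Figure D4:**
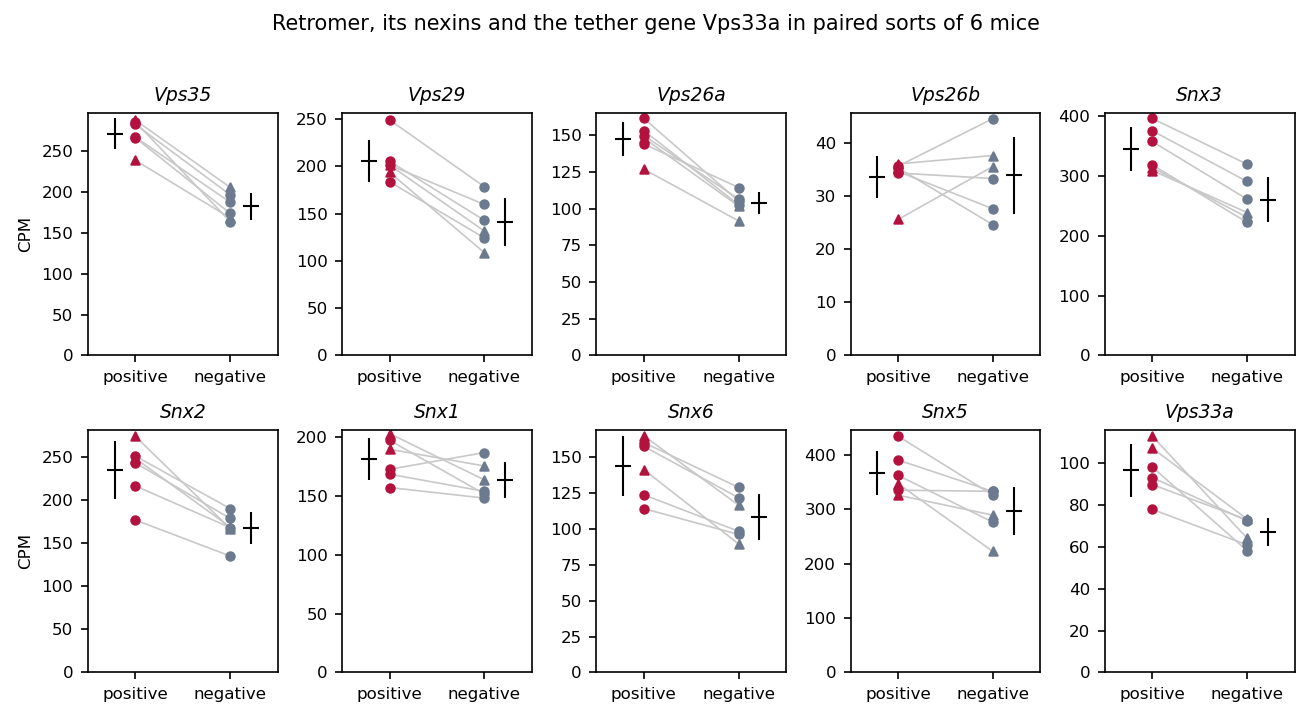
TMM-scaled CPM of the 4 retromer core genes, 5 nexins that work with retromer and Vps33a in the rhodamine-positive (left) and rhodamine-negative (right) library of each of 6 mice, joined by lines, with circles for male and triangles for female mice and bars for the mean ± SD (n = 6). Vps35, Vps29, Vps26a and Vps33a were higher in every rhodamine-positive library than in any rhodamine-negative one, and the lines of Vps26b cross.

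Of 8 genes listed with HOPS and CORVET, the tethers of late and early endosomes, 4 rose and none fell, and with library size alone 2 were higher. The list includes Vps33b, a relative of Vps33a whose product is known in mammals from a separate complex with VIPAS39. Vps33a (ENSMUSG00000029434; chromosome 5, positions 123528659 to 123573038), the subunit that holds SNARE proteins for fusion, had 77.8, 95.5 and 113 CPM in rhodamine-positive and 58.1, 68.2 and 73.2 CPM in rhodamine-negative libraries. The groups did not overlap, and Vps33a rose by 0.52 (SE 0.09, adjusted p = 0.00226). Vps8, a subunit of CORVET alone, had 52.1, 55.9 and 70.5 CPM in rhodamine-positive and 32.7, 42.5 and 48.9 CPM in rhodamine-negative libraries, without overlap (log2 0.47, adjusted p = 0.00437). Vps41, a subunit of HOPS alone, had 105, 113 and 120.5 CPM in rhodamine-positive and 81.8, 89.5 and 92.0 CPM in rhodamine-negative libraries and rose by 0.36 (adjusted p = 0.00776), with no overlap. Scaled to library size alone, it did not pass (adjusted p = 0.0901). The shared subunit Vps11 rose by 0.30 (adjusted p = 0.0233), but it did not pass without mouse 3 or 6 (largest adjusted p = 0.0781) or in the unpaired fit (adjusted p = 0.112). The other shared core subunits Vps16 and Vps18 had log2 fold changes of 0.00 and 0.19, the HOPS subunit Vps39 0.13 and Vps33b 0.14, and none of the 4 passed.

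Promoters of the members were searched because genes of several complexes were higher together. RefSeq gave a promoter (assembly GRCm38.p6, 250 bases before to 50 after the start) for 75 of 103 members, of which 24 rose, 2 fell and 43 did not pass. The E-box CACGTG, searched on both strands like every motif here, was found in 5 of the 24 that rose (Ap2m1, Vps33a, Vps26a, Snx5 and Snx8), in 1 of the 2 that fell (Ap1s2) and in 3 of the 43 that did not pass, against 8.09% of 27025 genes with a promoter in the table. The longer form GTCACGTGAC, which contains the E-box and is known as the palindrome bound by the lysosomal gene regulator TFEB, was found in 3 members, Vps33a, Vps26a and Vps16, against 0.37% of genes. Vps33a and Vps26a rose and Vps16, with the same 10 bases, did not pass, which is why the 3 are shown together. Each line gives the 250 bases before the RefSeq start, read 5′ to 3′ along the gene's strand, and capitals mark GTCACGTGAC or, where alone, CACGTG. The regions are chr5:123573016-123573265 (minus strand), chr10:62486806-62487055 (minus strand) and chr2:130424070-130424319 (plus strand).
Vps33a: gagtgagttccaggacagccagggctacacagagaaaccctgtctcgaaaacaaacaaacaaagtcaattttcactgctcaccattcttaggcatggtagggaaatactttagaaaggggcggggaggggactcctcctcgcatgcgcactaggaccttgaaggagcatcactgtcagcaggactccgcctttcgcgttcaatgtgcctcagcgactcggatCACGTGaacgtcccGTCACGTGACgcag
Vps26a: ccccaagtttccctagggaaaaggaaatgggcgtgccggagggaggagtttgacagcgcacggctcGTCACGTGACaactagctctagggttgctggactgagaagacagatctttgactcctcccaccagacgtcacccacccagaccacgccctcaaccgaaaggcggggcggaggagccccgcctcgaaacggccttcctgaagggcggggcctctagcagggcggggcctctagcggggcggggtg
Vps16: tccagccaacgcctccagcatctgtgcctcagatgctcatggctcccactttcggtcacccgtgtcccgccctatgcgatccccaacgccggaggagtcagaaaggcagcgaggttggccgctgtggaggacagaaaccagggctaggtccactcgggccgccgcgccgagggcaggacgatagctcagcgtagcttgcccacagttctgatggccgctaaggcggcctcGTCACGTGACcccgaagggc

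The E-box lay close to the start in Vps33a, where its first base was at -28 and that of the longer form at -14, and in Vps16, where the longer form began at -20. In Vps26a the longer form began at -184 from the start used for the printed stretch. A second RefSeq start of Vps26a had another copy of the longer form at -153 and a CACGTG at -175. The GENCODE start of Vps33a lies inside the printed stretch, so positions depend on the annotation used. Other motifs gave no larger counts than the E-box among the members that rose, apart from CCAAT, which was in 8 of the 24 against 41.06% of genes. CCGGAAGT was in 3 of the 24 (4.31% of genes) and GAGGAAGT in 1 (3.69%). TTCCGGAA, GCGCATGCGC, TGACTCA and TGACGTCA were in none of the 24, against 0.79%, 1.07%, 5.95% and 2.03% of genes, and TCACGTGA, which lies inside the longer palindrome, was in the same 3 members as that palindrome. These matches describe letters in a window and no binding.

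The nexins outside the BAR group held the members that fell most. Of 17 tested, 4 rose and 2 fell. Snx20 (ENSMUSG00000031662; chromosome 8, positions 88626563 to 88636128), a leukocyte nexin known to bind the selectin ligand PSGL-1, had 11.02, 12.7 and 13.8 CPM in rhodamine-positive and 31.1, 34.1 and 59.5 CPM in rhodamine-negative libraries. The groups stood far apart, and Snx20 fell 2.92-fold (log2 -1.55, SE 0.16, adjusted p = 6.24e-05). The value of 59.5 CPM came from mouse 5, and with each mouse left out in turn the log2 fold change was -1.62 to -1.36. Its relative Snx21 had 10.04, 11.6 and 14.0 CPM in rhodamine-positive and 16.7, 20.1 and 24.2 CPM in rhodamine-negative libraries, without overlap, and fell 1.73-fold (log2 -0.79, SE 0.12, adjusted p = 0.000785). Both passed in all 17 alternative settings. The summed dendritic cell, monocyte, and natural killer and T cell markers given above were lower in the same libraries, with no overlap between the groups. The natural killer and T cell sum rests mostly on Klrd1. The part of these cell types in the fall of Snx20 and Snx21 was not tested.

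Besides Snx3 and Snx12, Snx22 and Snx17 were the members of this group that rose. Snx22 had 337, 356 and 428 CPM in rhodamine-positive and 211, 286 and 320 CPM in rhodamine-negative libraries (log2 0.41, SE 0.09, adjusted p = 0.0069) with no overlap. However, 28.5% of its exon bases overlap the opposite-strand gene Ppib, the abundant cyclophilin B, which rose by 0.45 (SE 0.09, adjusted p = 0.0036), so the source of its reads is uncertain. Snx17, which recycles receptors of the LRP family through the retriever complex, rose by 0.26 in 5 of 6 mice and lay at the threshold (adjusted p = 0.0497). It did not pass without mouse 1, 3, 4, 5 or 6 (largest adjusted p = 0.134) or in the unpaired fit (adjusted p = 0.116). Snx27, the nexin that links retromer to receptors with PDZ-binding tails, and Snx10, known from osteoclasts, had log2 fold changes of 0.18 and 0.12 and did not pass. Snx16 and Snx29 had -0.47 (adjusted p = 0.0595) and -0.38 (adjusted p = 0.0617). Snx29 was called lower by DESeq2, in limma on the deposited log2 table, when scaled to library size alone, without a filter, with a stricter filter and without mouse 5. Snx16 was called lower in the deposited log2 table, with library size alone and with the stricter filter. With library size alone, 3 of these 17 nexins were higher and 4 lower.

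ESCRT genes were called in both directions. Of 4 tested subunits of ESCRT-I, the complex that takes over cargo first, none rose and 1 fell. Of 10 tested subunits of ESCRT-III, the filament that closes the neck of the internal vesicle, 3 rose and none fell. Chmp6 (ENSMUSG00000025371; chromosome 11, positions 119913441 to 119919548), which starts the filament by binding ESCRT-II, had 97.5, 108 and 129 CPM in rhodamine-positive and 55.7, 69.7 and 77.3 CPM in rhodamine-negative libraries. The groups did not overlap, and with a 1.60-fold rise it had the highest fold change of all members (log2 0.67, SE 0.10, adjusted p = 0.000896). Chmp3, a core filament subunit, had 106, 130 and 148 CPM in rhodamine-positive and 76.8, 93.9 and 114 CPM in rhodamine-negative libraries and rose by 0.47 (SE 0.08, adjusted p = 0.00144). Chmp5, which binds the VPS4 cofactor VTA1, rose by 0.27 (adjusted p = 0.0386), but it did not pass without mouse 1, 2, 3 or 6 (largest adjusted p = 0.134) or in the unpaired fit (adjusted p = 0.103). Chmp4b, from the family that forms most of the filament, had 7.88, 13.5 and 14.97 CPM in rhodamine-positive and 13.2, 15.9 and 25.1 CPM in rhodamine-negative libraries, and did not pass (log2 -0.45, adjusted p = 0.071). It was called lower by DESeq2, when scaled to library size alone, without a filter and without mouse 6. Chmp1a was higher in 5 of 6 mice and did not pass (log2 0.28, adjusted p = 0.0511). DESeq2 and limma-voom called Chmp1a higher, as did the fits with a GC and length offset and without mouse 2. Vps4a and Vps4b, the ATPases that take the filament apart, did not pass, but Vps4b was called higher with a GC and length offset. Vps4a had 42.3, 51.5 and 61.3 CPM in rhodamine-positive and 42.5, 49.5 and 53.9 CPM in rhodamine-negative libraries (log2 0.08, SE 0.11), and Vps4b had 94.5, 108 and 118 CPM in rhodamine-positive and 85.8, 96.7 and 111 CPM in rhodamine-negative libraries (log2 0.15, SE 0.08).

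The ESCRT-I subunit that fell was Vps37b (ENSMUSG00000066278; chromosome 5, positions 124004641 to 124032270). It had 28.1, 34.0 and 44.4 CPM in rhodamine-positive and 41.7, 50.5 and 62.8 CPM in rhodamine-negative libraries, with a small overlap and a lower value in the rhodamine-positive library of 6 of 6 mice. It fell 1.49-fold (log2 -0.58, SE 0.10, adjusted p = 0.00149). Of its exon bases 42.5% overlap the opposite-strand genes Hip1r and Gm37939, of which Hip1r fell by 0.65, so the source of its reads is uncertain. The other ESCRT-I genes did not pass: Vps28 had a log2 fold change of 0.20, Vps37a -0.01 and Vps37c -0.16. Vps37c was called lower when scaled to library size alone (adjusted p = 0.0251). Vps36 of ESCRT-II had 0.15, and its partner Vps25 had too few counts to test, with 3 to 16 counts a library in the rhodamine-positive and 4 to 12 in the rhodamine-negative group. Of the exon bases of Vps25, 67.2% lie in Ramp2 on the same strand, where counting can leave reads unassigned.

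Among the other Vps genes, Vps13c, a lipid transfer protein at contacts of the endoplasmic reticulum with late endosomes, was the 1 of 4 Vps13 genes that rose. It had 48.1, 52.7 and 64.0 CPM in rhodamine-positive and 32.1, 36.4 and 41.3 CPM in rhodamine-negative libraries, with no overlap (log2 0.58, SE 0.10, adjusted p = 0.00192). Vps13a, Vps13b and Vps13d had log2 fold changes of -0.29, -0.24 and -0.20 and did not pass. Vps13b was lower in the rhodamine-positive library of 6 of 6 mice (adjusted p = 0.126). Scaled to library size alone, Vps13b and Vps13d were called lower (adjusted p = 0.0239 and 0.0382), so that 1 Vps13 gene was higher and 2 were lower. Vps45, a regulator of SNAREs on early endosomes, rose by 0.31 (adjusted p = 0.0344) with 30.9 to 38.2 CPM in rhodamine-positive and 25.3 to 28.2 CPM in rhodamine-negative libraries and no overlap, but it did not pass without mouse 2, 3, 4, 5 or 6 (largest adjusted p = 0.0931). None of 5 genes of the GARP and EARP tethers, which receive vesicles at the Golgi and on recycling endosomes, passed. Their log2 fold changes ran from -0.25 (Vps51) to 0.27 (Vps50). Vps50 (adjusted p = 0.0625) was called higher with a GC and length offset and without mouse 2.

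Over all members, the groups did not overlap for 14 that rose and 2 that fell, against 4.14% and 4.67% of all genes in those directions. Without mouse 3, 19 members were called higher (19.8%), against 8.32% of all genes. Of the 30 that rose, 19 passed with each mouse left out in turn, and 15 passed in all 17 alternative settings: Vps35, Vps29, Vps26a, Snx2, Snx3, Snx6, Snx12, Cltc, Ap2m1, Ap2s1, Vps33a, Vps8, Chmp6, Chmp3 and Vps13c. All 4 that fell passed in every one of these settings. The share of all genes that met the same requirements was not computed, so these counts have no background to be set against. Scaled to library size alone, 13 of the 30 did not pass: Clta, Ap1b1, Ap1m1, Ap2a1, Dnm2, Snx4, Snx5, Snx8, Snx17, Vps11, Vps41, Vps45 and Chmp5, each still with a positive log2 fold change. Across mice 1 to 6 the median difference between the paired libraries over the 96 members was 0.17, 0.09, 0.22, 0.25, 0.21 and 0.12 on the log2 scale. The test of the sort by sex interaction called none of 15014 genes (0.00%) in edgeR, with 1160 genes and 4 members at an unadjusted p under 0.05, and the lowest adjusted p of a member was 0.562. Only 2 of the mice were female.

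The 7 members with too few counts to test were Ap1s3, Ap1m2, Ap3b2, Dnm1, Vps37d, Vps25 and Snx31. Ap1s3, the remaining AP-1 sigma gene, had 16 counts in all over the rhodamine-positive libraries and 79 over the rhodamine-negative ones.

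Several positions in these complexes can be filled by products of alternative genes. Alternative or related genes were set side by side in 15 pairs after their values had been seen, so they are described without a test. Vps33a and Vps33b are such relatives, and as given above their products are known from separate complexes. In 5 pairs the difference between the 2 genes' log2 changes had 1 direction in all 6 mice. The log2 change of Ap1s1 exceeded that of Ap1s2 by 1.17 ± 0.56 (mean ± SD, n = 6 mice). Per exon length, Ap1s1 had 45.1 ± 5.51 RPKM in rhodamine-positive and 33.5 ± 3.94 RPKM in rhodamine-negative libraries, and Ap1s2 had 14.1 ± 3.51 RPKM in rhodamine-positive and 23.6 ± 5.88 RPKM in rhodamine-negative libraries. The change of Vps37a exceeded that of Vps37b by 0.57 ± 0.18, that of Vps33a exceeded Vps33b by 0.39 ± 0.31, that of Ap2a1 exceeded Ap2a2 by 0.35 ± 0.29 and that of Snx2 exceeded Snx1 by 0.33 ± 0.16. For Vps26a over Vps26b the difference was 0.50 ± 0.41, with 5 of 6 mice above 0. The remaining pairs, among them Chmp2a with Chmp2b and Vps4a with Vps4b, differed by -0.07 to 0.33.

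**Figure D5:**
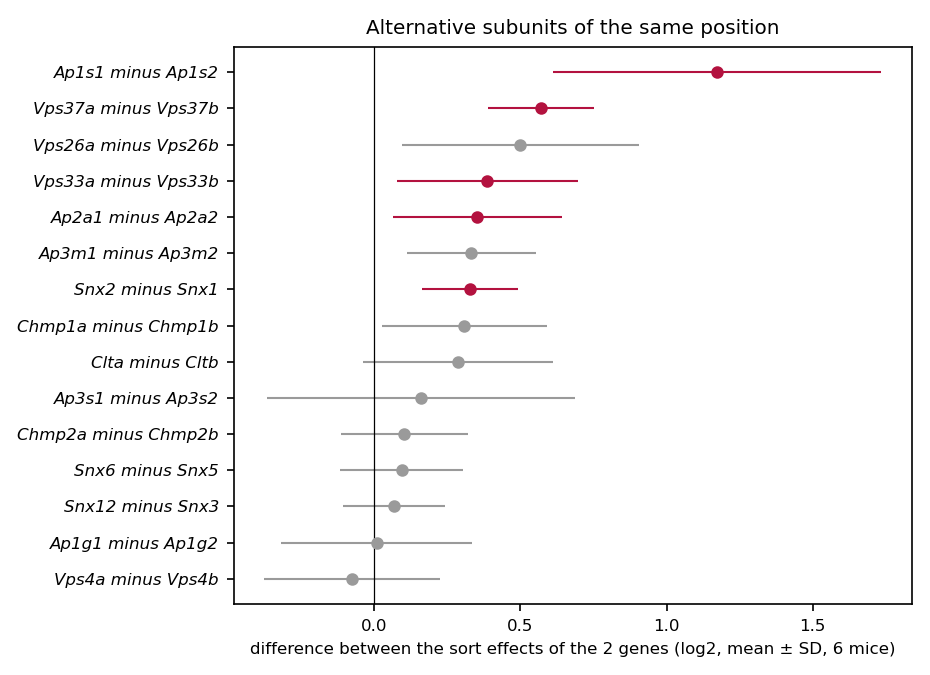
Difference between the log2 changes (rhodamine-positive minus rhodamine-negative) of 2 alternative or related genes, as the mean over 6 mice with its SD, for 15 pairs. Vps33a and Vps33b are relatives known from separate complexes. Red points mark the 5 pairs with 1 direction in all 6 mice, with Ap1s1 minus Ap1s2 farthest from 0 at 1.17.

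Genes that work with the members but carry other symbols were read from the same fit. Of 64 listed, 59 were tested, and 11 rose and 6 fell (18.6% and 10.2%), with a median of 0.14. The shares were 13.0% and 13.2% over all genes, and 20.0% and 13.9% over genes with a mean of at least 10 CPM, a level that most partners reached. Scaled to library size alone, 8 partners were higher and 10 lower, and their median was -0.02, against 5.67% of all genes higher and 20.9% lower. In the WASH complex, which builds actin on endosomes that carry retromer, 3 of 5 genes rose, with Washc5 (strumpellin) at 85.5 to 109.8 CPM in rhodamine-positive and 47.8 to 71.4 CPM in rhodamine-negative libraries (log2 0.68, SE 0.09, adjusted p = 0.000441). Of 11 COMMD and CCC genes, whose products act with retriever in recycling, 4 rose, among them Commd10 at 0.57 (SE 0.09, adjusted p = 0.00075). Clathrin accessory genes went both ways, with 3 of 22 higher and 5 lower. Gga2, a monomeric clathrin adaptor of the trans-Golgi network, rose by 0.75 (adjusted p = 0.000672) and Necap2, an adaptor-binding protein of endosomes, by 0.43 (adjusted p = 0.00238). Dab2, an adaptor for receptors of the LDL family in plasma membrane pits, was the third that rose, by 0.46 in 5 of 6 mice (adjusted p = 0.0232). Among the 5 that fell, Hip1r, which links clathrin to actin, had a log2 fold change of -0.65 (adjusted p = 0.00249), Synj1, the lipid phosphatase that helps uncoat vesicles, -0.56 (adjusted p = 0.00304), and Fcho2, which acts as pits form, -0.57 (adjusted p = 0.00618). Exons of Hip1r overlap those of Vps37b on the opposite strand, so the source of the reads of Hip1r is uncertain too. Uvrag, a subunit of the class III phosphoinositide kinase complex, fell by 0.71 (SE 0.10, adjusted p = 0.00037), with 38.9 to 62.7 CPM in rhodamine-positive and 59.7 to 131.1 CPM in rhodamine-negative libraries. None of the 11 other ESCRT genes tested passed.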

How the data were processed

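RNA from 12 libraries, 2 from each of 6 mice, was measured by sequencing. The authors deposited unnormalized read counts by gene, in 1 joint table and in single files for each library, and log2 normalized values of 10605 genes. The submitters' processing notes name build mm10 and the tools HISAT2 2.1.0, bcl2fastq 2.17, featureCounts 1.4.4, cutadapt, limma and edgeR. Their roles and settings are not given in the sources used here. All 12 count files equalled the count table.

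Counts were tested as deposited in edgeR 4.0.16 (R 4.3.3). The steps were filterByExpr by group (minimum count 10, minimum total 15), TMM scaling and the quasi-likelihood test with the mouse as a block. SE was the size of the log2 fold change over the root of its F statistic. RPKM used exon lengths of GENCODE vM21. Library totals were 13073189 to 17379314. Chi-square per degree of freedom between libraries of a group was at least 22.7 in the rhodamine-positive and 19.5 in the rhodamine-negative group, so each library was counted on its own.

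The pairing comes from the series description. Across genes, the 2 libraries of a mouse deviated together from their group means, with r = 0.226, 0.207, 0.289, 0.078, 0.302 and 0.45 for mice 1 to 6, and mouse 4 lay below the highest correlation with another mouse (0.187).

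Members, lists and tests were chosen with earlier results of these data known. Full values are given for the 10 members with the highest log2 fold changes past the threshold (mean log2 CPM at least 2), all that fell, and the AP-2, clathrin, retromer core and Vps4 genes, and values of other members were chosen after they were seen. Partners named are the 4 with the smallest p in each direction, and Dab2, added after its value was seen. Near-identical copies were matched at 95% identity over at least 30% of the transcript. In simulated counts of this comparison (14713 genes), the test recovered 39% of 100 genes with a true log2 change of 0.5 and 93% of 100 with a change of 1, with 11 false among 143 calls. The changed genes were drawn from those with more counts, and all other genes were left unchanged. No differences between mice were simulated. In the data 26.2% of genes were called, so recovery there can differ from these shares. Alternatives were DESeq2 1.42.0, limma 3.58.1 (voom, and on the deposited log2 table), an unpaired fit, other scalings, filters and thresholds, a GC and length offset, the 4 male mice, and leaving each mouse out. Symbols Chmp1b2, Vps26c and Vps35l were not analysed here.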

Additional observations from a re-analysis of the deposited data

Results flagged for a closer look

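In 9 of 192 groups of 6 libraries, 1 per member and sort, the highest or lowest library stood far from the others; chance flags about 1 in 20 groups. In the rhodamine-positive libraries of mouse 5, Vps45 was at 38.2 CPM (others 30.9 to 33.4), Vps8 at 70.5 CPM (52.1 to 59), Ap1b1 at 265 CPM (165 to 183) and Vps13d, low, at 17.5 CPM (21.1 to 23.3). In that of mouse 6, Snx22 was at 428 CPM (337 to 366), and Vps26b and Snx32 were low, at 25.6 CPM (34.4 to 36.1) and 6.35 CPM (7.62 to 7.83). Vps29 was at 249 CPM in the rhodamine-positive library of mouse 1 (184 to 205). In the rhodamine-negative library of mouse 5, Snx20 was at 59.5 CPM (31.1 to 35.4). That library also lay apart on the first principal component of all genes, at 75.7 against 18.5 to 37.3 for the other rhodamine-negative libraries. No cause was tested.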

How the results depend on the processing

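The 30 members called higher and 4 called lower were recomputed in 17 alternative settings, and no member past the threshold turned its direction in any. With library size alone 17 members were higher and 13 lower, the members' median turned to -0.0074 while that of all genes moved to -0.18, and 10 partner genes fell in place of 6. All genes then split into 852 higher and 3142 lower, against 1955 and 1986. Members called lower numbered 8 of 96 with DESeq2, 9 of 95 in limma on the deposited log2 table, 9 of 103 without a filter and 8 of 93 with a stricter filter (minimum count 50). Over all genes the shares lower in these 4 settings were 15.2%, 15.5%, 6.84% and 16.2%. At an adjusted p of 0.01, 18 members (18.8%) were higher and 4 lower. Over all genes 908 (6.05%) were then higher and 1033 (6.88%) lower, 1941 in all. With male mice alone 18 members (18.8%) were higher and 4 lower. Among all genes in that setting 1005 (6.64%) were higher and 1222 (8.07%) lower, 2227 in all. Leaving out each mouse in turn gave 19 to 29 members higher (19.8% to 30.2%, with 19 without mouse 3) and 4 to 6 lower. The members' median was 0.14 to 0.18. Over all genes 8.32% to 11.8% were then higher and 9.4% to 12.1% lower, with 2678 to 3600 called in all. Among partners 9 to 12 were higher and 4 to 6 lower. Of 17 role groups, 11 to 13 had a median above 0, against 12 with all mice and 8 with library size alone. Without the mouse as a block 22 members were higher and 4 lower, and 1270 genes were higher and 1398 lower in all. The causes of these shifts were not tested, and some of the settings also leave fewer libraries or genes. In simulated counts 39% of changes of 0.5 on the log2 scale were recovered, with the number of mice, spread and library sizes of these data. The simulation had a far smaller share of changed genes than the 26.2% called here, so it does not give the recovery in these data.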
